A study of Mus musculus with 4 samples.

Results

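Semaphorins are secreted or membrane-bound guidance proteins, plexins are their main receptors, and neuropilins are co-receptors that hold class 3 semaphorins on plexins. Plexins act on the cytoskeleton and on adhesion through small GTPases. In the immune system semaphorins steer migration and cell contacts, and Sema4d was among the first of them described on lymphocytes. All genes of the 3 families were taken by gene symbol from the deposited table. They were 31 of the 24561 gene symbols on the array, namely 20 semaphorins, 9 plexins and 2 neuropilins, and they were read by 46 of 55681 probes. Within the families, Sema4f and Plxnb1 were singled out, selected on their log2 ratios to L1210-control in earlier results of the same 4 arrays, so that their ratios are a description of these arrays.

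The study asked how splice variants of Fbxw11, the substrate-binding subunit of an SCF ubiquitin ligase, act on L1210 cells. L1210 is a mouse lymphocytic leukemia line, here the DBA subline 212. All 4 lines were infected with lentivirus, sorted for GFP and kept as stable lines, and by their labels they differ in the insert. The insert was the full-length transcript for L1210-Fbxw11a, the form without exon 2 for L1210-Fbxw11c and the form without exons 2 and 3 for L1210-Fbxw11d, and the labels of L1210-control give the insert as control. The vector that the methods name drives its insert from the EF1α promoter. Labelled RNA of each line was hybridised to 1 Agilent 1-colour mouse array, so that there were no replicate arrays, no test was possible and no array difference given here has a replicate check. The study also measured Plxnb1 by real-time PCR in these lines, which is named with that gene and enters no value given here. A sorted line is 1 population, and differences between lines that arose by infection, sorting or culture cannot be told apart from those of the variant. In these RNA samples, fewer expressing cells and less RNA per cell cannot be told apart either.

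Signals are scanner intensities divided by the 75th percentile of their array and multiplied by that of L1210-control. Where 4 signals follow each other, they stand in the order control, Fbxw11a, Fbxw11c, Fbxw11d, and 3 log2 ratios to L1210-control stand in the order of the variants. The percentiles were 620.2, 627.3, 672.5 and 954.2, and 62.5% to 68.67% of probes were well above background, the scanner software's own call. The L1210-Fbxw11d array came from a scan of its own, so that the scan and the line cannot be told apart. Of 12 B lineage markers, 7 passed that call in all 4 lines, and Cd79b, Ebf1, Ms4a1, Igll1 and Rag1 in none. T lineage markers were well above background on all 4 arrays for 4 of 8 genes, macrophage and monocyte markers for 6 of 8, fibroblast markers for 4 of 6, endothelium markers for 3 of 6 and neuron markers for 3 of 6, and their part in any result was not tested. The summed signal of the fibroblast list went from 1230 in L1210-control to 2765, 4109 and 3978 in the variant lines, which was mostly the collagen gene Col1a2 (888.3, 2419, 3819 and 3688), while the median log2 ratios of the list were 0.01, -0.08 and 0.40. That of the B lineage list went from 19020 to 23840, 23030 and 21670. The sum of the macrophage and monocyte list fell from 14610 to 12340, 11130 and 11750, with median log2 ratios of -0.23, -0.43 and -0.22. The endothelium list fell from 6217 to 6100, 5740 and 5010, and the neuron list from 6707 to 6573, 6211 and 6464. The T lineage list went from 4487 to 4833, 4746 and 4398. The 2 probes of Fbxw11 gave log2 ratios between 0.03 and 0.31, so the array does not check the labels through the inserted gene. The study itself checked the lines by real-time PCR and western blot and reports high levels of the variants. Those measures were not re-examined here.

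Each probe is 60 bases long, and a level is that of the stretch it reads. The first 30 bases of the probes that carry the results are shown in the sense of the transcript, with the position of the whole probe on mm9, since several genes had probes that differed in their values. Lower case is used throughout because no part of a probe is marked.
Sema4f first probe, chr6:82862388-82862447, minus strand: atggctttcatcagattctcaaggccttaa
Sema4f second probe, chr6:82866429-82866488, minus strand: cctcactctgaataattcagaatgactctc
Plxnb1 probe, chr9:109021856-109021915, plus strand: tcttcaagatcgcaggagccattttggttt
Nrp2 first probe, chr1:62865129-62865188, plus strand: tgagccagatcacgggaactcgagagcttt
Nrp2 second probe, chr1:62843298-62843357, plus strand: ggtttctgttggctgtcattgtcatctcca
Sema3a first probe, chr5:13473453-13473512, plus strand: tatgcctgtggaactggggctttccatcca
Sema3a second probe, chr5:13602462-13602521, plus strand: gatgggaactagaaaactggagagaaaaat
Sema4d first probe, chr13:51781462-51781521, minus strand: aacgcacagcacctactgcaccaagctatt
Sema4d second probe, chr13:51796617-51796676, minus strand: tttctacttggaactgtacacatttgaaaa
Sema6d first probe, chr2:124491609-124491668, plus strand: ttttcaatgccaccaacaaactatgttaag
Sema6d second probe, chr2:124490948-124491007, plus strand: taaagaggacaccatccttaaaacctgatg
The first probe is the one with the higher mean log2 signal over the 4 arrays, and it represents the gene. In total 17 members had 1 probe, 13 had 2 and Sema5b had 3. No member spot was saturated or called an outlier, and each member probe had 1 spot on each array.

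Most of the family was readable in L1210 cells. The representing probe was well above background on all 4 arrays for 22 of the 31 genes (70.97%), against 66.16% of all 24561 genes. All 6 class 4 semaphorins were among the 22, as were 5 of 7 of class 3, 1 of 2 of class 5, 3 of 4 of class 6, Sema7a, 5 of 9 plexins and 1 of 2 neuropilins. These counts include Plxna2, which is uncertain. Its representing probe lies on chromosome 13, and its probe on chromosome 1 passed on no array. Sema3d, Sema5a, Plxna4, Plxnc1 and Nrp1 were not well above background on any array, which here means signals between 2.073 and 8.392. Of their functions, Nrp1 is the usual co-receptor of Sema3a, Plxna4 a receptor used by Sema3a and class 6 semaphorins, and Plxnc1 the plexin that binds Sema7a. The other 4 genes passed on some arrays. Plxnb1 passed in L1210-control alone, Sema3a and Plxnb3 passed in the 3 variant lines alone, and Sema6a missed in L1210-Fbxw11c. By array, 24, 25, 24 and 25 members passed.

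**Figure D1:**
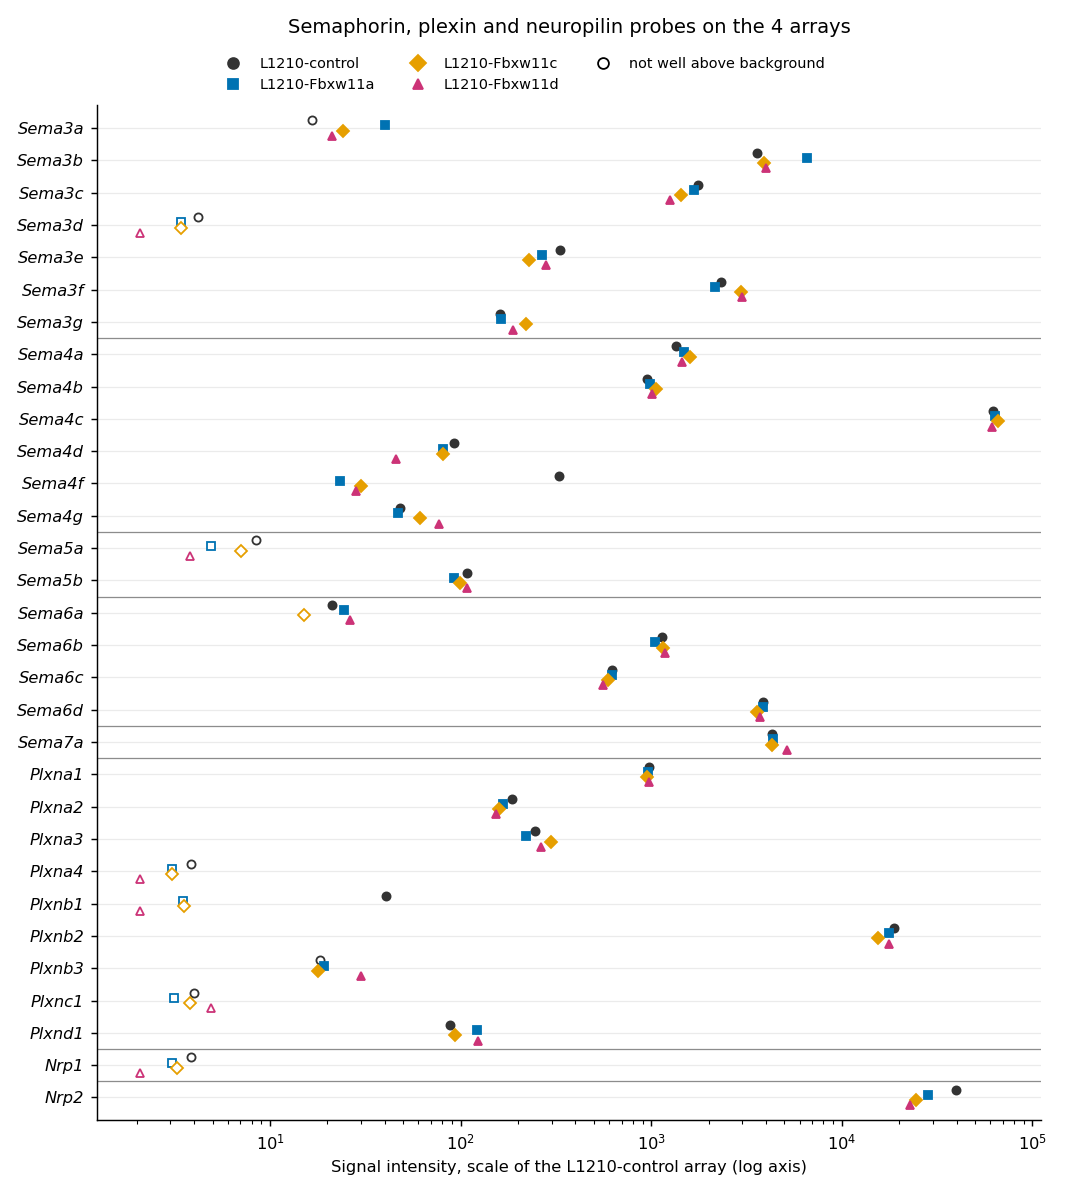
Signal intensity (log axis, scale of the L1210-control array) of the representing probe of each of the 31 members, with 1 symbol per line and hollow symbols where the spot was not well above background. The 4 symbols of most rows lie close together, while Sema4f and Plxnb1 have their L1210-control symbol far to the right of the other 3. Signals are compared within a row, since probes differ in brightness.

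Differences from L1210-control were few. By their representing probes and at 2-fold or more, Sema4f and Plxnb1 were lower in all 3 variant lines, and Sema3a was higher in L1210-Fbxw11a. In L1210-Fbxw11a, 26 members could be compared, of which 2 were lower and 1 higher. Over all genes compared in that line, 2.06% were lower and 2.47% higher. In L1210-Fbxw11c, 2 of 25 members were lower and 0 higher, against 2.3% and 1.63% of all genes. In L1210-Fbxw11d, 2 of 26 members were lower and 0 higher, against 4.96% and 1.11% of all genes. In all 3 lines together, 2 of 25 members were lower and 0 higher, against 1.36% and 0.217% of all genes. The 2 lower members are the 2 that were singled out by these ratios, so nothing is read from their count, and the 3 comparisons share the 1 L1210-control array. Between the variant lines, no representing probe was called. Of the 25 members compared in each pair by that probe, 0 passed 2-fold in either direction, while among all genes 4.23% did so for the variants a and c, 6.18% for a and d, and 4.37% for c and d. Second probes did pass between variants in Sema3a, Sema4d, Sema5b and Sema6d. Against L1210-control, second probes were called higher for Sema3a in the a and c variants, and lower for Sema4d in a, Nrp2 in c and Sema6d in d. Their values stand with the genes.

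Most members lay near the control level. Members well above background on both arrays, Sema4f included, numbered 23, 22 and 23 in the 3 lines. Of these, 21, 20 and 19 were within 1.5-fold of L1210-control, which are 91.3%, 90.91% and 82.61%. The shares over all genes were 91.95%, 92.84% and 86.6%. The median log2 ratios of these members were -0.02, -0.02 and 0.00, against 0.00, 0.02 and 0.04 over all genes. Centring on the median in place of the 75th percentile moved the median of all genes in L1210-Fbxw11d to 0.26 and put 17 members above 0 and 6 below, against 12 and 11 here. In 17 members the ratio stayed within 1.5-fold in all 3 lines with all 4 spots well above background.

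**Figure D2:**
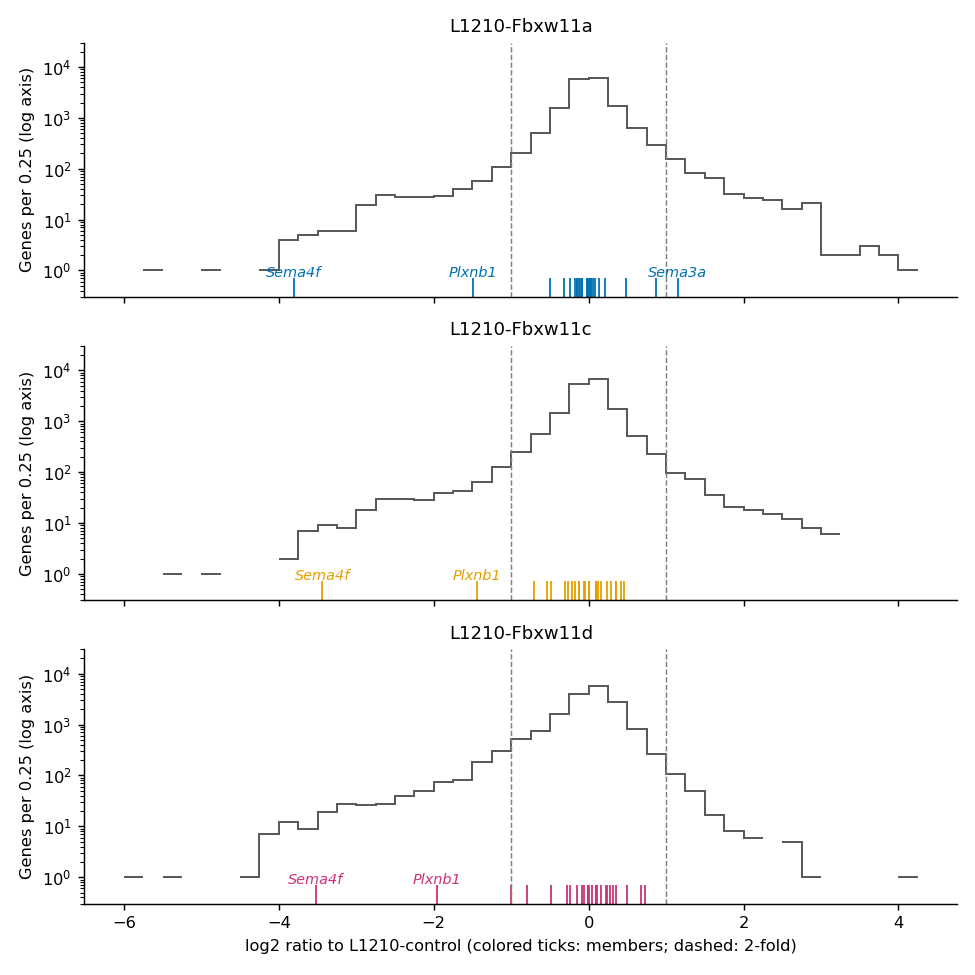
Number of genes per 0.25 step of the log2 ratio to L1210-control (log axis) for all genes compared, with 1 panel per variant line, colored ticks for members and dashed lines at 2-fold. Member ticks crowd around 0 in each panel, and only the members called at 2-fold are named.

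Sema4f is a transmembrane class 4 semaphorin first described in neural tissue. Its first probe gave 326.2 ± 32.87 in L1210-control cells, with the scanner's own error estimate for the single spot. In the variant lines it gave 23.21 ± 3.913, 30.01 ± 4.407 and 28.42 ± 3.521. The control array thus stood alone, the 3 variant arrays lay close together, and all 4 spots were well above background. The log2 ratios were -3.81 ± 0.51, -3.44 ± 0.49 and -3.52 ± 0.63, or 14.05-, 10.87- and 11.48-fold lower. The error of a ratio is the spot SD, the spread between spots of probes printed 10 times at the same brightness, combined over both arrays, and it leaves out culture, sorting and RNA extraction. Between variant lines Sema4f differed by at most 0.37 on the log2 scale, which is within that spread. The variant signals were not far above the lowest signals well above background, 14.36, 14.86 and 10.4. Over the alternatives that gave 1 ratio per gene, the ratios ranged from -3.92 to -2.08, from -3.44 to -2.13 and from -3.52 to -2.46, and those nearest 0 came from normexp background correction, which adds an offset of 50 to every signal. The second Sema4f probe, which the file assigns to another transcript, did not pass the background call in any line, with signals of 3.925, 4.118, 3.126 and 2.073. The difference therefore rests on 1 probe, that is 1 spot on each array.

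Plxnb1 is the receptor through which Sema4d acts on RhoA. Its only probe gave 40.4 ± 8.052 in L1210-control cells and was well above background there. On the other arrays it was not, with signals of 3.501, 3.534 and 2.073. The fold changes are therefore bounds, set against the same lowest signals. In the order of the variants, Plxnb1 was at least 2.813-, 2.718- and 3.885-fold lower. With normexp background correction the ratios became -0.54, -0.58 and -1.09, and the call was lost in L1210-Fbxw11a and L1210-Fbxw11c. The L1210-control signal itself was near the limit, since the lowest signal well above background on that array was 18.09. The study measured Plxnb1 by real-time PCR in repeated experiments, within a set of genes tied to proliferation. It reports that the PCR results of this set matched its array data. Its text gives no direction for Plxnb1 alone, and the PCR values were not re-examined here.

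**Figure D3:**
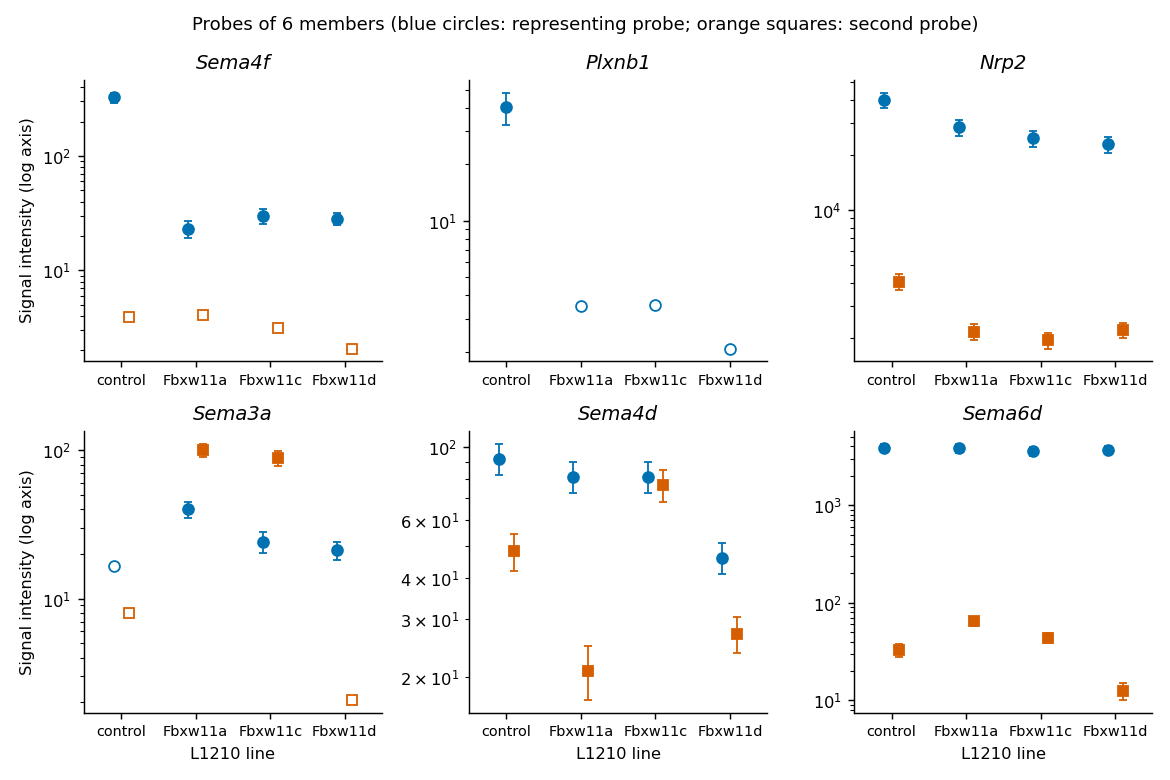
Signal intensity (log axis) of every probe of Sema4f, Plxnb1, Nrp2, Sema3a, Sema4d and Sema6d in the 4 lines. Blue circles are the representing probe, orange squares the second probe, hollow symbols were not well above background, and bars on filled symbols are the scanner software's error of 1 spot. Both Nrp2 probes are highest in L1210-control, whereas the 2 probes of Sema4d and of Sema6d differ in the order of the lines.

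Nrp2, the neuropilin that binds Sema3f and VEGF-C, was below L1210-control in all 3 variant lines on both of its probes, mostly by less than 2-fold. The first probe gave 39860 ± 3986 in L1210-control and 28240 ± 2824, 24620 ± 2462 and 22890 ± 2289 in the variant lines. Its log2 ratios were -0.50 ± 0.09, -0.70 ± 0.09 and -0.80 ± 0.11. The second probe gave 4052, 2151, 1940 and 2203, with log2 ratios of -0.91 ± 0.09, -1.06 ± 0.09 and -0.88 ± 0.11, of which that in L1210-Fbxw11c passed 2-fold. On both probes the control array was the highest of the 4. Each of these differences exceeded 2 spot SD, and the ratios of the gene stayed between -0.88 and -0.48 over the alternatives that gave 1 ratio per gene. Nrp1, the other neuropilin, was not well above background.

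The promoters of Sema4f, Plxnb1 and Nrp2 are shown since the study followed β-catenin/TCF and NF-κB signaling in these lines. The 3 genes were chosen after their values were seen, from 10 members that were below L1210-control in every variant line. The others of the 10, Sema3c and Sema3e among them, are not shown. The stretches shown are the 250 bases before the RefSeq gene start, in the sense of the gene, on GRCm38.p6, a later build than the probe positions. Capitals mark the TCF core CTTTGA, searched on both strands.
Sema4f, chr6:82939770-82940019, minus strand: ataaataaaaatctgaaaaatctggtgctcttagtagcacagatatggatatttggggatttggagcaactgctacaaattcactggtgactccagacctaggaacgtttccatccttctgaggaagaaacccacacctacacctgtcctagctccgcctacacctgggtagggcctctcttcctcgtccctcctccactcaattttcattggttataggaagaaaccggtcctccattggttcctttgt
Plxnb1, chr9:109095186-109095435, plus strand: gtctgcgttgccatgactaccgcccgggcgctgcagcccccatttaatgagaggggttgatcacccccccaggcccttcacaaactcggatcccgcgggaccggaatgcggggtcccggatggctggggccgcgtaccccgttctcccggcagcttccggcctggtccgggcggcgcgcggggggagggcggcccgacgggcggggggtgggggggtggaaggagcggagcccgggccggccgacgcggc
Nrp2, chr1:62703067-62703316, plus strand: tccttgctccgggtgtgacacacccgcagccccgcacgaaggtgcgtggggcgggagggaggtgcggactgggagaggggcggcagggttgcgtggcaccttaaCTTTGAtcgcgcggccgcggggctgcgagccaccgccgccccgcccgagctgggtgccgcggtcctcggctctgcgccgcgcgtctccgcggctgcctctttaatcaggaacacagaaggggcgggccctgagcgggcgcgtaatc
The TCF core as CTTTGA, the only form searched, was in 1 of the 3 windows, that of Nrp2. It was in 13.8% of the 32851 windows of all genes. The Sema4f window ends in ctttgt, which differs from this form in its last letter and was not counted. The NF-κB consensus was in 0 of the 3 and in 7.25% of all windows. Of the 26 members with a window, Nrp2 and Sema3e held the TCF core and Plxna3, Sema4a and Sema4c the NF-κB consensus. Plxna1, Plxna4, Sema3b, Sema3f and Sema6a had none in the table. The Nrp2 and Plxnb1 windows held 32 and 30 CpG dinucleotides and that of Sema4f 4, with a median of 6 over all windows. A match is a run of letters and not a measured binding site.

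Of the secreted class 3 semaphorins, which act through neuropilins, Sema3a was the one called. Its first probe gave 16.59 in L1210-control, not well above background, against 40.04 ± 4.955, 24.13 ± 3.988 and 21.14 ± 2.965 in the variant lines. The bound was 2.213-fold or more for the a variant, 1.334-fold for c and 1.169-fold for d. With normexp the first of these became 0.32 on the log2 scale and the call was lost. The second probe gave 8.025, 100.0, 88.82 and 2.073, and was well above background in L1210-Fbxw11a and L1210-Fbxw11c alone. It was at least 5.528- and 4.91-fold higher there. The probes thus differed in L1210-Fbxw11d, where only the first passed. Compared with that line, the a and c variants were higher by at least 9.616- and 8.541-fold on the second probe and by 1.894- and 1.142-fold on the first. Sema3b was 1.823-fold higher in L1210-Fbxw11a, with signals of 3583, 6530, 3898 and 4008 and log2 ratios of 0.87 ± 0.09, 0.12 ± 0.09 and 0.16 ± 0.11. For this gene the L1210-Fbxw11a array stood apart from the other three. Sema3c, with signals of 1764, 1668, 1437 and 1259, had log2 ratios of -0.08 ± 0.10, -0.30 ± 0.09 and -0.49 ± 0.12. Its second probe gave -0.17, -0.33 and -0.22. Sema3e, the ligand that binds plexin D1 directly, gave 332.9, 266.9, 229.7 and 281.1, with ratios of -0.32 ± 0.21, -0.54 ± 0.23 and -0.24 ± 0.25. Both genes were below the control in all 3 lines without passing 2-fold. Sema3f, the Nrp2 ligand, gave 2321, 2157, 2965 and 2979, with ratios of -0.11 ± 0.10, 0.35 ± 0.09 and 0.36 ± 0.11. Sema3g gave 160.3, 163.1, 220.7 and 188.9, with ratios of 0.02 ± 0.31, 0.46 ± 0.29 and 0.24 ± 0.36, and its second probe gave 0.30, 0.19 and -0.01.

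The class 4 semaphorins are membrane-bound and include those best known from lymphocytes. Sema4d, or CD100, binds plexin B1 and, on lymphocytes, CD72. Its first probe gave 92.09 ± 9.986, 81.23 ± 8.671, 81.14 ± 8.703 and 46.05 ± 5.053, with log2 ratios of -0.18 ± 0.41, -0.18 ± 0.43 and -1.0 ± 0.61. The last of these lay just under 2-fold. The second probe, in another transcript in the file, gave 48.26 ± 6.257, 20.97 ± 3.887, 76.52 ± 8.332 and 27.04 ± 3.411, with ratios of -1.20 ± 0.66, 0.66 ± 0.52 and -0.84 ± 0.74, of which the first was called lower at 2.301-fold. The 2 probes agreed in direction in L1210-Fbxw11a and L1210-Fbxw11d and differed in L1210-Fbxw11c. Between variants, the second probe in L1210-Fbxw11c was 3.649-fold above L1210-Fbxw11a and 2.83-fold above L1210-Fbxw11d. Sema4a, known from dendritic cells, gave 1344, 1485, 1590 and 1450, or ratios of 0.14, 0.24 and 0.11. Sema4b gave 944.7, 984.1, 1058 and 1015, with ratios of 0.06, 0.16 and 0.10. Sema4c, a ligand of plexin B2, gave 62210, 63730, 66300 and 61690, with ratios of 0.03, 0.09 and -0.01. These 3 genes stayed within 1.5-fold of L1210-control in each line. Sema4g gave 47.86, 47.1, 61.28 and 76.87, and its ratios of -0.02 ± 0.56, 0.36 ± 0.55 and 0.68 ± 0.62 were of the size of the spot SD or smaller.

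Classes 5 to 7 lay near the control level on their representing probes. Sema5b, a transmembrane semaphorin with thrombospondin repeats, gave 108.6, 92.14, 98.95 and 107.5, with ratios of -0.24 ± 0.39, -0.13 ± 0.39 and -0.01 ± 0.48. One of its other probes was well above background in L1210-Fbxw11c alone, at 23.5 ± 4.065, which is at least 1.299-fold higher than in L1210-control and at least 2.26-fold higher than in L1210-Fbxw11d, and the third probe was above background on none. Sema6a, a ligand of class A plexins, gave 21.08, 24.4 and 26.38 in L1210-control, L1210-Fbxw11a and L1210-Fbxw11d, and 15.1 in L1210-Fbxw11c, not well above background. These signals lay near the detection limit, and the ratios were 0.21 ± 0.74 in L1210-Fbxw11a, a bound of -0.48 in L1210-Fbxw11c and 0.32 ± 0.84 in L1210-Fbxw11d. Sema6b gave 1139, 1046, 1146 and 1177, with ratios of -0.12, 0.01 and 0.05, and Sema6c gave 619.5, 621.0, 592.5 and 560.2, with ratios of 0.00, -0.06 and -0.15. The second Sema6c probe had ratios of 0.26 ± 0.19, 0.45 ± 0.18 and 0.18 ± 0.22. The first Sema6d probe gave 3867, 3850, 3568 and 3717, with ratios of -0.01, -0.12 and -0.06. The second, a dim probe, gave 32.84 ± 4.934, 64.71 ± 7.087, 43.6 ± 5.4 and 12.51 ± 2.427, with ratios of 0.98 ± 0.58, 0.41 ± 0.64 and -1.39 ± 0.97. It was called lower in L1210-Fbxw11d, where the first probe differed by -0.06 ± 0.11. Against L1210-Fbxw11d it was 5.172-fold higher in L1210-Fbxw11a and 3.484-fold higher in L1210-Fbxw11c. Sema7a, a GPI-anchored semaphorin that also binds integrins, gave 4296, 4372, 4320 and 5178, with a ratio of 0.27 ± 0.11 in L1210-Fbxw11d and 0.03 and 0.01 in the other lines.

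Among the plexins, those measured on all arrays kept near the control level. Plxna1, a co-receptor partner of neuropilins, gave 976.7, 965.3, 946.4 and 976.9, with ratios of -0.02, -0.05 and 0.00. Plxna2 is uncertain, since its representing probe lies on chromosome 13 (chr13:82317719-82317778), whereas its other probe lies on chromosome 1 and was above background on no array. The chromosome 13 probe gave 185.1, 167.0, 158.8 and 153.0, with ratios of -0.15 ± 0.29, -0.22 ± 0.31 and -0.28 ± 0.39. Plxna3 gave 244.7, 220.4, 298.6 and 262.5, with ratios of -0.15 ± 0.25, 0.29 ± 0.23 and 0.10 ± 0.28. Plxnb2, a receptor of class 4 semaphorins like Plxnb1, gave 18680, 17620, 15500 and 17690, with ratios of -0.08 ± 0.09, -0.27 ± 0.09 and -0.08 ± 0.11. It stayed within 1.5-fold of L1210-control. Plxnb3, a receptor of Sema5a, was near the detection limit, with 18.22 in L1210-control, not well above background, and 19.31 ± 3.83, 17.88 ± 3.736 and 30.19 ± 3.666 in the variant lines. In L1210-Fbxw11d it was at least 1.657-fold higher. Plxnd1, the Sema3e receptor, gave 87.44, 122.0, 93.83 and 123.1, with ratios of 0.48 ± 0.38, 0.10 ± 0.42 and 0.49 ± 0.47. Its second probe gave -0.07 ± 0.61, 0.60 ± 0.57 and -0.10 ± 0.72 and did not follow the first.

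**Figure D4:**
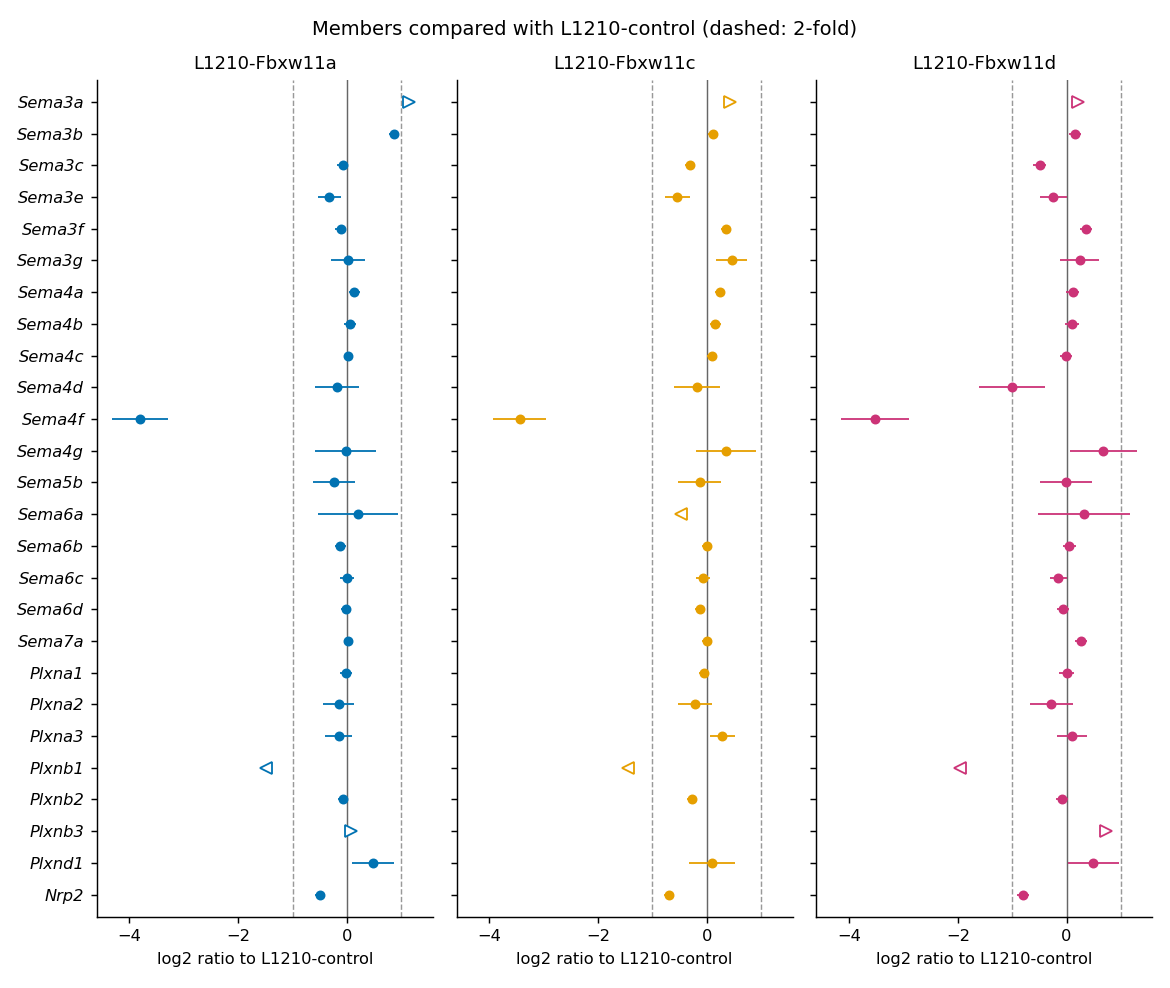
Log2 ratio to L1210-control of the 26 members well above background on at least 1 array, with 1 panel per variant line. Circles are measured ratios with the spot SD as bars, open triangles are bounds that point away from 0, and dashed lines mark 2-fold. Sema4f and Plxnb1 lie left of the dashed line in all 3 panels, and Nrp2 lies between it and 0.

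Genes that work with the receptors were read from lists written from general knowledge of semaphorin signalling. Of 12 receptor partners, 8 passed the background call on every array and Cd72, Timd2 and Trem2 on none, so that Cd72, the lymphocyte receptor of Sema4d, was not readable. In each line 9 could be compared, of which 1, 0 and 0 were called, beside 2.06% of all genes lower in L1210-Fbxw11a. Tyrobp, the DAP12 adaptor used with plexin A1, was the only one called, with signals of 89.24, 36.98, 56.82 and 168.2. Its log2 ratios were -1.27, -0.65 and 0.91, of which only that in L1210-Fbxw11a passed 2-fold. With normexp background correction this call was lost. Itga1, a partner of Itgb1 in the integrin that Sema7a binds, gave 44.03, 58.62, 74.57 and 85.19, with ratios of 0.41, 0.76 and 0.95, and did not reach 2-fold. In L1210-Fbxw11d both genes lay just under the threshold, and they passed it as higher with quantile normalization (1.05 for Tyrobp and 1.14 for Itga1), with centring on the median (1.13 and 1.17) and with the deposited log2 values (1.06 and 1.15). The medians of the list were -0.05, -0.03 and -0.26, against 0.00, 0.02 and 0.04 over all genes.

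Of 27 cytoplasmic effectors, 24 passed the background call on every array and Dpysl3 and Fyn on none. Crmp1, of the collapsin response mediator family that carries the Sema3a signal to microtubules, was the only one called. It gave 105.3 in L1210-Fbxw11c and was not well above background elsewhere, with 4.062, 3.375 and 5.047, which is a bound of 2.54 on the log2 scale against L1210-control. Mical2, an actin-oxidising enzyme of the plexin pathway, gave 133.6, 69.36, 109.2 and 106.8, with a ratio of -0.95 in L1210-Fbxw11a that stayed under 2-fold. Arhgef11 and Arhgef12, the RhoA exchange factors that bind class B plexins, had ratios between -0.07 and 0.36. Rasa1 gave 3759, 4941, 5678 and 5434, with ratios of 0.39, 0.60 and 0.53, and Rras gave 5625, 5095, 4138 and 4005, with ratios of -0.14, -0.44 and -0.49. The medians of the list were 0.02, 0.00 and 0.02. Of its genes 0 of 24, 1 of 25 and 0 of 24 were called, the one higher, beside 1.63% of all genes higher in L1210-Fbxw11c.

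**Figure D5:**
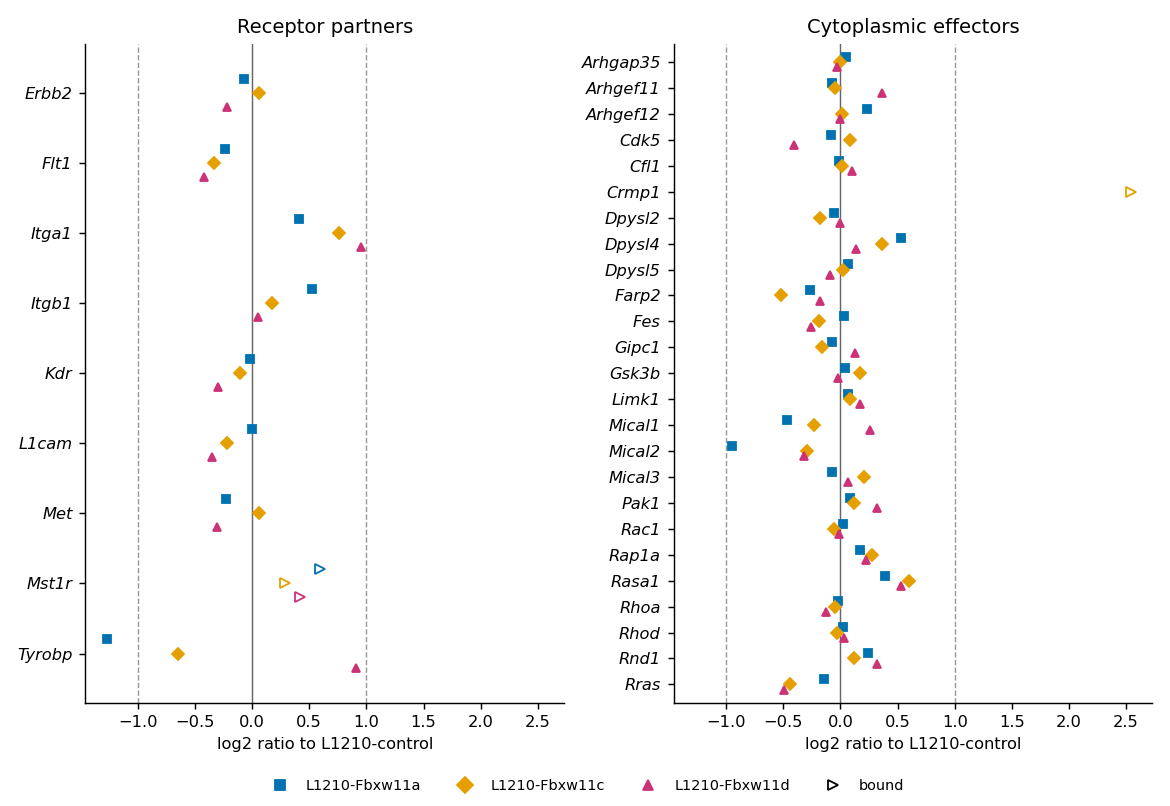
Log2 ratio to L1210-control of receptor partners (left) and cytoplasmic effectors (right) well above background on at least 1 array, with 1 symbol per variant line, open triangles for bounds and dashed lines at 2-fold. Tyrobp in L1210-Fbxw11a and Crmp1 in L1210-Fbxw11c are the only symbols past the dashed lines.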

How the data were processed

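RNA of 4 L1210 lines was read on 1 Agilent 1-colour mouse array each, and groups follow the labels. Per the file headers, the authors deposited scanner output with background-corrected signal intensity, its error and flags for each spot, made with Feature Extraction 10.7.1.1 (the submitters' processing notes name 9.1). They also deposited a table of log2 signals normalized across arrays, gene symbols, mm9 positions and detection flags, and how those log2 values were normalized is not given in the sources used here. The labels and methods name lentivirus for the infection, and another part of the study's text names retrovirus.

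Gene spots (59305) were used, spots with an outlier flag were left out, and log2 of the processed signal minus the 75th percentile of its array was averaged over spots of a probe. A gene was represented by its probe of highest mean log2 signal. A ratio was computed where at least 0.5 of a probe's spots were well above background on either array, and called at 2-fold. Against an array where the probe was not well above background, the ratio is a bound, set against the higher of its own signal and the lowest signal well above background there. The spot SD came from 399 probes printed on 10 spots. The number of arrays limits the precision, and no p-value was computed.

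The members and lists were chosen with earlier results of these data known, and the lists support nothing beyond their counts. All members well above background on at least 1 array are named, with a second probe where its call differs and, for some genes, where it does not. Of the partner and effector lists, genes past 2-fold are named by rule, and Itga1, Mical2, Arhgef11, Arhgef12, Rasa1 and Rras were chosen after their values were seen. Alternatives were normexp (limma 3.58.1, R 4.3.3, offset 50), centring on the median, quantile normalization, the deposited log2 values, other filters on dim probes, flagged spots kept, thresholds of 1.5- and 3-fold, other rules for several probes, and leaving out the L1210-Fbxw11d array. The code that makes the calls was checked on simulated data, which tests the code and not the calls. Promoters are RefSeq windows of GRCm38.p6, in which the NF-κB consensus was searched by its usual 10-letter pattern. Python 3.11.15, numpy 2.4.6, pandas 2.3.3 and matplotlib 3.10.9 were used.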

Additional observations from a re-analysis of the deposited data

How the results depend on the processing

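No called member ratio changed sign under any alternative, and 21 of 77 member ratios, none of them called, did under at least 1. Of the counts below, the values first reported are 1 higher and 2 lower in L1210-Fbxw11a, 0 and 2 in each other line, 2 lower in all 3, 0 between variants, receptor partners 1, 0 and 0, and effectors 0, 1 and 0. With normexp, L1210-Fbxw11a had 0 higher and 1 lower, L1210-Fbxw11c 1 lower, all 3 lines 1 lower, and 0 receptor partners were called in L1210-Fbxw11a. With probes well above background on both arrays, L1210-Fbxw11a had 0 higher, each line and all 3 lines together 1 lower, which was Sema4f, and effectors in L1210-Fbxw11c were 0, since that filter takes out every bound. At 3-fold, L1210-Fbxw11a had 0 higher and 1 lower, L1210-Fbxw11c 1 lower, all 3 lines 1 lower, and receptor partners in L1210-Fbxw11a were 0. At 1.5-fold, L1210-Fbxw11a had 2 higher, L1210-Fbxw11d 2 higher and 4 lower, pairs of variants 3 (a and c), 5 (a and d) and 3 (c and d), receptor partners 2 in each line, and effectors 1 in L1210-Fbxw11a and 2 in L1210-Fbxw11c. Counting every probe gave 2 higher in L1210-Fbxw11a, 1 higher in L1210-Fbxw11c, and 1, 2 and 4 between the same pairs of variants. The mean over probes gave 1 higher in L1210-Fbxw11c and 2 each for a and d and for c and d. Without a filter on dim probes, L1210-Fbxw11d had 4 lower, and receptor partners were 2 in L1210-Fbxw11a and 1 in L1210-Fbxw11d. Quantile normalization, centring on the median and the deposited log2 values each gave 2 receptor partners in L1210-Fbxw11d, Tyrobp and Itga1. Where no construction is named, the cause was not tested. Another 156 recomputed counts stayed within 1.5 times their first value, among them the 2 lower genes without the L1210-Fbxw11d array. No paired analysis was possible because each line had 1 array, and for the same reason no array of a line could be left out in turn. Signal over background limits Plxnb1, Sema3a, Plxnb3, Sema6a and, in the variant lines, Sema4f, whose spots lay near the lowest signal well above background.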
